A study of Mus musculus with 8 samples.

Results

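Regulators of G-protein signalling (RGS proteins) were followed at the RNA level through 10 genes, *Rgs2*, *Rgs3*, *Rgs4*, *Rgs5*, *Rgs7*, *Rgs8*, *Rgs10*, *Rgs12*, *Rgs16*, and *Rgs17*, of the 18533 gene symbols counted. The genes were chosen by symbol from a list that was set with earlier results of these data known. It holds 10 of the 20 numbered *Rgs* symbols that were counted. *Rgs8* was put on that list by its own fold change between these samples, and *Rgs17* because its protein, RGSZ2, binds HINT1. The samples were primary mouse aortic smooth muscle cells (MASMCs) from WT mice (n = 4) and from *Hint1-/-* mice (n = 4), a knockout line for which the study's methods name no Cre driver and do not give the deleted exons. The study's text names the thoracic aorta in one place and the whole aorta in others as the source of the cells. The mice were 4- to 6-week-old males, per the study's methods. All 8 cultures had received PDGF-BB, a growth factor for smooth muscle, at 20 ng/mL for 24 hours, so no sample without PDGF-BB stands beside them. RNA was sequenced as 50-base reads, and the values used are estimated read counts per gene. Whether replicates came from separate mice is not stated, so the replicate error is the spread between the deposited samples.

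A G protein is switched on when an activated receptor loads its alpha subunit with GTP, and it is switched off when the alpha subunit hydrolyzes that GTP. RGS proteins bind active alpha subunits of the Gi and Gq classes and speed this hydrolysis, which shortens the signal of the receptor. In vascular smooth muscle this limits the contraction caused by agonists such as angiotensin II. The genes fall into subfamilies by their protein domains. *Rgs2*, *Rgs3*, *Rgs4*, *Rgs5*, *Rgs8*, and *Rgs16* belong to the R4 group, *Rgs7* to the R7 group, *Rgs10* and *Rgs12* to the R12 group, and *Rgs17* to the RZ group. HINT1 is a small nucleotide-binding protein that holds RGSZ proteins at the mu-opioid receptor in neurons.

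Between 20778077 and 20888041 estimated counts were obtained per sample. *Hint1* ranged over 2272 to 2364 counts in WT and 713 to 778 in *Hint1-/-* MASMCs, or 32.1% of WT, so reads from the targeted gene remained at a lower level. Of the 18533 symbols, 13535 had enough counts to be tested with the quasi-likelihood (QL) test of edgeR, and 9 of the 10 RGS genes were among them. A gene is termed called where its Benjamini-Hochberg adjusted p was under 0.05 and its fitted fold change was over 1.5. The defining smooth muscle markers *Myh11* and *Acta2* were present in WT MASMCs at 20.4 ± 1.03 and 826 ± 44.6 CPM (counts scaled to library size by edgeR's TMM method, SD, n = 4 each). Markers of other cell types are given beside the results they moved with.

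The promoters of *Rgs8*, *Rgs16*, *Rgs2*, and *Rgs17* are shown because the first pair are neighbours that were both lower in *Hint1-/-* MASMCs, *Rgs2* overlapped between the genotypes, and *Rgs17* encodes the HINT1 partner. Each is the 250 bases before a RefSeq transcription start on the GRCm38.p6 build, read 5′ to 3′ on the strand of the gene. Capitals mark the letters GCCNNNGGC, an AP-2 palindrome, in *Rgs2* and *Rgs16*, and TGANTCA, an AP-1 site, in *Rgs17*.
Rgs8, chr1:153652787-153653036, plus strand, first start: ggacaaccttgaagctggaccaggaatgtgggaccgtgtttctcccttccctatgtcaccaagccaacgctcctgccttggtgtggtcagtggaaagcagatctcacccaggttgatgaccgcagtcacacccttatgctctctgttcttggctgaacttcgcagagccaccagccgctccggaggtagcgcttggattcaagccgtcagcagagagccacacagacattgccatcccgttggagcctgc
Rgs8, chr1:153665024-153665273, plus strand, a start within the gene: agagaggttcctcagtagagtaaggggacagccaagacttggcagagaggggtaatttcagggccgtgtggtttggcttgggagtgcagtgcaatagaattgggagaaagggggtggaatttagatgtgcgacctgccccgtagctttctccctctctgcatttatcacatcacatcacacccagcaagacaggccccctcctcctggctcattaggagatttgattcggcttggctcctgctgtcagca
Rgs16, chr1:153740103-153740352, plus strand: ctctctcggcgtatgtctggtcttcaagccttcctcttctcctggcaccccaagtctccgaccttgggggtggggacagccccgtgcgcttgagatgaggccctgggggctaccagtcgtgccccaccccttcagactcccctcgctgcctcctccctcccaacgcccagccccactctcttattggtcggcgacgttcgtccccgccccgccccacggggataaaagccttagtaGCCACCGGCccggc
Rgs2, chr1:144004150-144004399, minus strand: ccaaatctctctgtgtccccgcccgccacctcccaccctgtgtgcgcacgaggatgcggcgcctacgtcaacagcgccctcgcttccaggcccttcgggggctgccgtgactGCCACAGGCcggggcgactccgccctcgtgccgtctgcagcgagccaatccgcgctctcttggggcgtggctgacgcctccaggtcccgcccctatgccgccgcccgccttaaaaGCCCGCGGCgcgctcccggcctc
Rgs17, chr10:5922401-5922650, minus strand: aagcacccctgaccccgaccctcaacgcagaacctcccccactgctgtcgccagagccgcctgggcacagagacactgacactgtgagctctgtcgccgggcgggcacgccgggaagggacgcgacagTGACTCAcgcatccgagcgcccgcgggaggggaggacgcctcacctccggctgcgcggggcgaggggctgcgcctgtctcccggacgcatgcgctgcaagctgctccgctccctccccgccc

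All 10 genes were matched by symbol, to 14 such windows of the 32851 in the table. Both strands were searched for the AP-2 and AP-1 letters. The E-box of the USF and MiT factors, spelled CACGTG, was searched as well, as were the cAMP response element, spelled TGACGTCA, and the CArG box of serum response factor. The AP-2 palindrome was found in 4 of the 14 windows and in 13.7% of all windows. It lay at −138 to −130 and at −23 to −15 from the start of *Rgs2*, at −14 to −6 in *Rgs16*, and in 1 window each of *Rgs7* and *Rgs12*. The AP-1 site was found in 2 of the 14 windows, of *Rgs12* and of *Rgs17* at −122 to −116, and in 6.75% of all windows. *Rgs7* alone had the E-box, which 6.02% of all windows hold. No window of the 10 genes held the cAMP response element (1.55% of all windows) or the CArG box (1.47%). None of the letters searched were in the 3 windows of *Rgs8*, and no match overlapped another. The windows printed for *Rgs8* held 9 and 4 CpG dinucleotides, against 17 for *Rgs16*, 30 for *Rgs2*, 27 for *Rgs17*, and a median of 6 over all windows. A match is a description of these letters and not of binding.

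*Rgs8* encodes a short R4 protein that is best known from neurons. Its counts were 151, 164, 156, and 142 in WT replicates 1 to 4 and 23, 16, 17, and 21 in *Hint1-/-* replicates 1 to 4. Every *Hint1-/-* sample lay far below every WT sample. CPM averaged 7.33 ± 0.423 in WT and 0.928 ± 0.159 in *Hint1-/-* MASMCs (SD, n = 4 each), or 12.7% of WT. On the log2 scale *Hint1-/-* differed from WT by −2.97 (SE 0.14), a fitted fold of 7.86. This was the lowest value among tested genes averaging at least 50 counts, while over all 13535 genes the lowest was −3.73. As this contrast put *Rgs8* on the list, the values describe it, and no p is given for it or for the other 9 genes. Counts of these genes that met the call limits are descriptions too.

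*Rgs16*, an R4 gene whose product is short-lived because its N-terminal cysteine marks it for degradation, was the most abundant of the 10. It had 1841, 1714, 1795, and 1737 counts in WT replicates 1 to 4 and 1332, 1215, 1303, and 1269 in *Hint1-/-* replicates 1 to 4. The genotypes were well apart, with the lowest WT sample above the highest *Hint1-/-* sample. CPM averaged 84.8 ± 2.92 in WT and 61.7 ± 2.35 in *Hint1-/-* MASMCs (SD, n = 4 each), for a log2 fold change of −0.46 (SE 0.038). Its size was under the fold limit.

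*Rgs5* marks pericytes and arterial smooth muscle and restrains Gq and Gi signals there. Its counts were 957, 858, 864, and 836 in WT replicates and 713, 733, 743, and 740 in *Hint1-/-* replicates. The *Hint1-/-* samples lay close together, all below WT, and WT replicate 1 stood highest. CPM averaged 42.0 ± 2.63 in WT and 35.3 ± 0.616 in *Hint1-/-* MASMCs (SD, n = 4 each). The fitted log2 fold change was −0.25 (SE 0.046), and −0.21 without WT replicate 1.

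*Rgs10*, a small R12 protein best known from macrophages and microglia, had 312, 307, 314, and 287 counts in WT replicates and 236, 260, 250, and 231 in *Hint1-/-* replicates. Its genotypes did not overlap. The log2 fold change was −0.31 (SE 0.064), from 14.6 ± 0.585 to 11.8 ± 0.648 CPM (SD, n = 4 each). *Rgs12*, a large R12 protein that also carries Ras-binding and GoLoco domains, had 1379, 1260, 1271, and 1218 counts in WT replicates and 1150, 1128, 1123, and 1108 in *Hint1-/-* replicates. These were lower in every *Hint1-/-* sample, but by less, with a log2 fold change of −0.18 (SE 0.041).

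*Rgs17* encodes RGSZ2, the RGS protein that HINT1 binds. Its counts were few, at 48, 36, 44, and 57 in WT replicates and 27, 36, 38, and 35 in *Hint1-/-* replicates. The genotypes overlapped. CPM averaged 2.21 ± 0.423 in WT and 1.64 ± 0.232 in *Hint1-/-* MASMCs (SD, n = 4 each), and the log2 fold change of −0.43 was near that of *Rgs16* but had an SE of 0.18. Between −0.54 and −0.32 was obtained as single samples were left out. For this gene 6 of the 8 deposited values were not whole, as arises when reads that fit more than 1 sequence are divided, so its counts carry that uncertainty as well. *Rgs8* had 3 such values, and the other 8 genes had whole values throughout.

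*Rgs2*, *Rgs3*, and *Rgs4* overlapped between the genotypes. *Rgs2*, a Gq-selective regulator that nitric oxide and cGMP signals recruit in smooth muscle, had 438 to 497 counts in WT and 432 to 523 in *Hint1-/-* MASMCs, a log2 fold change of 0.01 (SE 0.065). *Rgs3*, whose long form carries a PDZ domain, had 1305 to 1453 and 1292 to 1356 counts, with a log2 fold change of −0.04 (SE 0.039). *Rgs4*, a further substrate of the N-terminal cysteine pathway, had 60, 58, 51, and 53 counts in WT replicates and 48, 49, 49, and 73 in *Hint1-/-* replicates. *Hint1-/-* replicate 4 stood apart from the other 3 samples of its genotype. Its log2 fold change was −0.01 (SE 0.16), and −0.18 without that sample. *Rgs7*, a mainly neuronal gene, was too low to test, with 28 counts over the WT samples and 34 over the *Hint1-/-* samples. The ratio of *Hint1-/-* to WT was 1.22, with an exact (Clopper-Pearson) 95% interval of 0.72 to 2.10 that covers counting error only. A difference within that interval was not detectable at this depth.

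**Figure D1:**
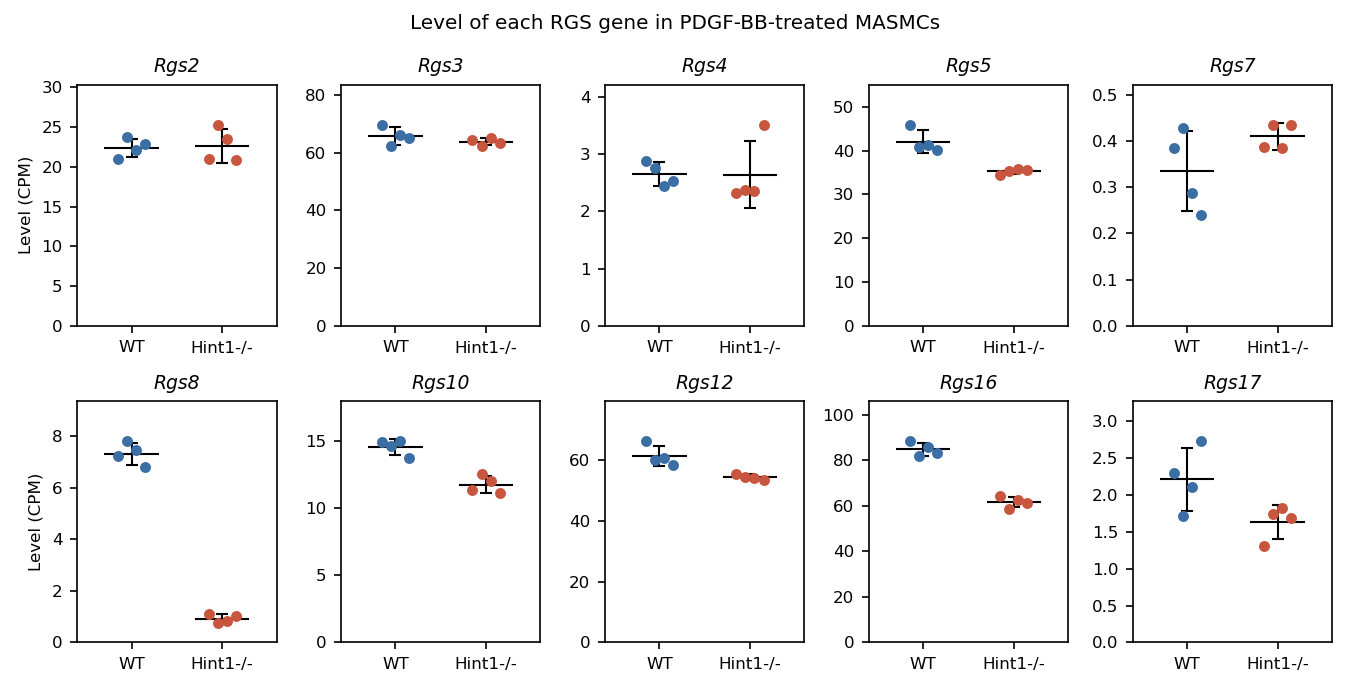
Level in CPM of each of the 10 RGS genes, with 1 panel per gene and axes from 0. Points are the 4 WT (blue) and 4 *Hint1-/-* (red) samples, bars are the mean, and error bars are the SD. *Rgs8*, *Rgs16*, *Rgs5*, *Rgs10*, and *Rgs12* show no overlap, and *Hint1-/-* replicate 4 is the high point of *Rgs4*.

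Of the 9 tested genes, *Rgs8* alone was called. Over all tested genes 2.83% were called, 1.49% as lower and 1.34% as higher in *Hint1-/-* MASMCs. Without the fold limit, *Rgs5*, *Rgs8*, *Rgs10*, *Rgs12*, and *Rgs16* passed 0.05 by edgeR QL adjusted p, all lower, against 21.5% of all tested genes in either direction and 10.2% of them as lower. The genotypes did not overlap in the same 5 genes and in 23.0% of all tested genes. Because the contrast itself put a gene on the list, nothing is read from these shares. The median log2 fold change of the 9 genes was −0.25, beside 0.00 over all 13535 genes. It ranged from −2.97 for *Rgs8* to 0.01 for *Rgs2*, and within the R4 group alone it covered that whole range.

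**Figure D2:**
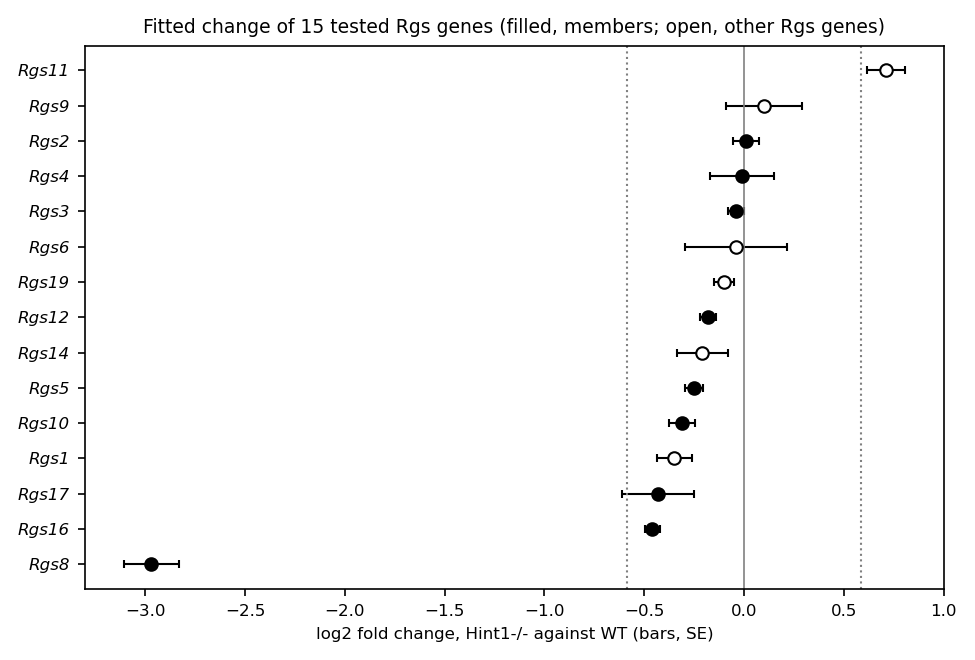
Log2 fold change of *Hint1-/-* against WT MASMCs with its SE for the 9 tested RGS genes described here (filled) and 6 other tested numbered RGS genes (open). Dotted lines mark a fold of 1.5. *Rgs8* at −2.97 and *Rgs11* at 0.71 lie outside them.

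To compare levels between genes, CPM was divided by the length of the merged exons in kilobases. On this scale *Rgs16* was highest in WT at 36.2 ± 1.25, followed by *Rgs5* at 9.25 ± 0.578, *Rgs10* at 8.53 ± 0.342, and *Rgs12* at 7.23 ± 0.396 (SD, n = 4 each). *Rgs2* at 6.18 ± 0.314 and *Rgs3* at 6.09 ± 0.287 came next and overlapped. *Rgs4* at 0.857 ± 0.065 and *Rgs8* at 0.760 ± 0.044 overlapped as well. *Rgs17* at 0.267 ± 0.051 and *Rgs7* at 0.0556 ± 0.014 were lowest. The order is a description, and the places of *Rgs2*, *Rgs3*, *Rgs5*, and *Rgs10* rest on the length used: with the longest transcript instead, *Rgs10* was at 16.6, *Rgs3* at 14.0, *Rgs12* at 11.2, *Rgs5* at 10.3, and *Rgs2* at 7.42 in WT. In *Hint1-/-* MASMCs *Rgs8* fell to 0.0963 ± 0.017, below *Rgs17* at 0.198 ± 0.028, and the other genes held their order.

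Summed over the 10 genes, the level per length was 75.4 ± 2.36 in WT and 60.8 ± 0.763 in *Hint1-/-* MASMCs (SD, n = 4 each), or 80.6% of WT. The genotypes were apart, at 73.5 to 78.7 in WT and 59.9 to 61.7 in *Hint1-/-* MASMCs. *Rgs16* made up 48.0% of the WT sum and 67.3% of the difference, *Rgs10* 11.2% of it, *Rgs5* 10.1%, and *Rgs12* 5.62%. *Rgs8*, with the largest fold change, gave 4.53% of the difference. With the longest transcript as the length, *Rgs16* gave 57.5%, *Rgs10* 18.7%, *Rgs5* 9.60%, *Rgs12* 7.45%, and *Rgs8* 4.41% of it. Without *Rgs8* the sum was 81.3% of WT, and without *Rgs16* it was 87.8%. In absolute level these 10 genes thus differed most in *Rgs16*, and in proportion most in *Rgs8*. The sum rests on the list, which leaves out 10 other numbered *Rgs* genes. Among those, *Rgs19*, named after its value was seen, was at 57.5 ± 3.89 CPM in WT and 53.8 ± 3.47 CPM in *Hint1-/-* MASMCs (SD, n = 4 each, edgeR QL adjusted p = 0.21). *Rgs1*, also left out, was lower, and *Rgs11* was higher.

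**Figure D3:**
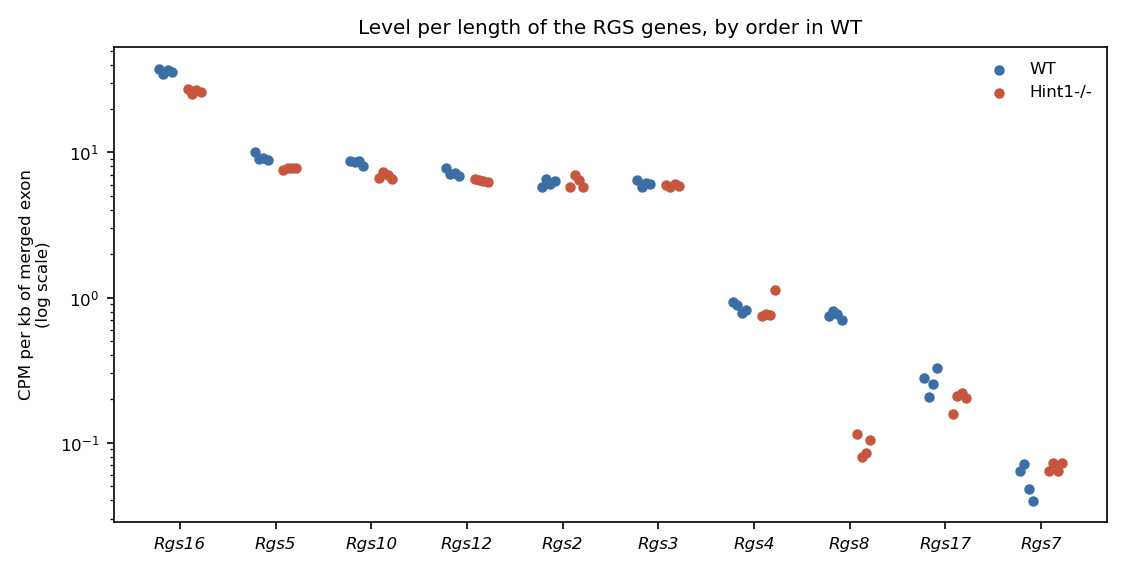
Level of each RGS gene in CPM per kilobase of merged exon, on a log axis and in the order of the WT means. Points are single WT (blue) and *Hint1-/-* (red) samples. *Rgs16* lies above all others in both genotypes, and *Rgs8* drops from 0.760 to 0.0963.

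On the mm10 build, 6 of the 10 genes lie on chromosome 1 (GENCODE M21 positions). *Rgs8* (chromosome 1, 153653025 to 153700323) and *Rgs16* (chromosome 1, 153740349 to 153745468) lie on the plus strand, 40.0 kb apart with no tested gene between them. *Npl*, the nearest tested gene before *Rgs8*, was at −0.12 on the log2 scale (SE 0.20, edgeR QL adjusted p = 0.72). Within 1 Mb of the pair, 14 genes were tested. The only call was *Rgs8* itself, beside 2.83% of all tested genes. With no fold limit 4 passed 0.05 as lower, *Rgs8* and *Rgs16* included, and 2 as higher. Over all tested genes 10.2% passed as lower and 21.5% in either direction. As *Rgs8* and *Rgs16* set the window, nothing is read from these counts. The median log2 fold change of the 14 genes was −0.08. *Rgs4* and *Rgs5* form another pair on chromosome 1, 45.7 kb apart on opposite strands, with log2 fold changes of −0.01 and −0.25. *Rgs17* lies on chromosome 10 from 5825663 to 5922400 on the minus strand. Its nearest tested neighbour before it was *Mtrf1l*, 1.75 kb away, at 0.06 (SE 0.071, edgeR QL adjusted p = 0.61). The nearest after it was *Cnksr3*, 1197 kb away, at −0.24 (SE 0.080, edgeR QL adjusted p = 0.041). Annotated antisense genes overlap *Rgs3*, *Rgs8*, *Rgs12*, and *Rgs16*, and the counting is not stated to use strand, so reads of either strand cannot be told apart there.

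The genes whose pattern was most like that of *Rgs8* were sought by Pearson's r of log2 CPM over the 8 samples, among 11848 tested genes averaging at least 50 counts. *Postn* had r = 0.999, *Ngfr* 0.998, *Igfbp2* 0.996, *Col15a1* 0.996, and *Tmem267* 0.995. The 8 samples fall into 2 genotypes that *Rgs8* keeps apart, so r here mostly restates the difference between genotypes. *Rgs16* came closest among the RGS genes, at 0.984 and place 30 of the 11848, followed by *Rgs10* at 0.907 and *Rgs5* at 0.901. *Rgs2* was at −0.13. *Rgs17* had too few counts to be used.

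*Ngfr*, the low-affinity nerve growth factor receptor, is also a marker of Schwann and neural crest cells. Of 8 listed markers of these cells, all tested, 7 were called lower, and their summed level was 50.4 to 56.8 CPM in WT samples and 12.9 to 15.3 CPM in *Hint1-/-* samples, or 25.5% of WT. The defining marker *Sox10* was at −2.53 on the log2 scale (SE 0.095, edgeR QL adjusted p = 6.2e-13). *Rgs8* moved with this list. Its part in the value of *Rgs8* was not tested. In bulk RNA, fewer cells of a type and less RNA per cell cannot be told apart.

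Markers of macrophages were summed at 2262 to 2619 CPM in WT samples and 1847 to 1967 CPM in *Hint1-/-* samples, or 79.5% of WT. All 6 listed genes were lower by edgeR QL at the adjusted limit of 0.05 and 0 were called, the defining *Ptprc* and *Adgre1* at log2 fold changes of −0.31 (SE 0.050) and −0.37 (SE 0.047). Mature smooth muscle markers were at 1353 to 1469 and 1117 to 1207 CPM, or 81.1% of WT, with 3 of 7 tested genes called lower. Of its defining markers, *Myh11* was at −1.54 (SE 0.067) and *Acta2* at −0.52 (SE 0.038) on the log2 scale. In the same list *Smtn* was higher at 0.25 (SE 0.038, edgeR QL adjusted p = 9.0e-05), and *Tagln* was at −0.10 (SE 0.040, edgeR QL adjusted p = 0.070). Both, like *Dcn* and *Lum* among the fibroblast markers, were named after their values were seen. Pericyte markers overlapped at 441 to 468 and 401 to 450 CPM, or 94.9% of WT. Most of that sum was *Pdgfrb*, at 362 CPM in WT and 0.04 (SE 0.038) on the log2 scale. Of 6 tested, *Mcam* at −2.13 (SE 0.081) and *Cspg4* at −0.75 (SE 0.065) were called lower, and *Notch3* was lower at −0.34 (SE 0.059). These genes were named after their values were seen. The defining *Kcnj8* at 0.30 (SE 0.27) and *Abcc9* at 0.20 (SE 0.13) were not called. The part of these lists in the values of *Rgs5*, *Rgs10*, *Rgs12*, and *Rgs16* was not tested. Endothelial markers were near 0, at 5.53 to 8.08 and 5.19 to 7.49 CPM, with *Pecam1* at 0.957 CPM in WT. Fibroblast markers went both ways. The defining *Pdgfra* was at 0.34 (SE 0.034) and *Dpt* at −0.79 (SE 0.050) on the log2 scale, with *Dcn* and *Lum* called higher and *Dpt* called lower, and the sum was at 111% of WT. Neuron markers were at 78.9% of WT, with the defining *Rbfox3* and *Snap25* near 0. Most of that sum was *Tubb3* and *Uchl1*, named after their values were seen. They were at 80.0 and 31.8 CPM in WT and at −0.27 (SE 0.039) and −0.54 (SE 0.061) on the log2 scale. Cardiac muscle markers were at 1.29 to 2.16 CPM in WT and 4.62 to 8.32 CPM in *Hint1-/-* samples, or 372% of WT. Of 6 listed, 3 were tested, and all 3 were called higher.

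Outside the 10 genes, 27 genes with an RGS or RGS-like domain were listed, 26 were counted, and 19 were tested. *Rgs11*, an R7 gene, was the 1 called, beside 2.83% of all tested genes. Its counts rose from 104, 102, 104, and 128 in WT replicates to 159, 184, 184, and 186 in *Hint1-/-* replicates, with no overlap. It was higher by 0.71 on the log2 scale (SE 0.096, edgeR QL adjusted p = 2.2e-05), opposite in direction to *Rgs8*. *Rgs11* shares bases with *Arhgdig* on the opposite strand, which had 51 to 60 and 55 to 72 counts and was at 0.21 on the log2 scale (SE 0.13, edgeR QL adjusted p = 0.31), and how shared reads were divided is not stated. *Rgs1*, an R4 gene of immune cells that lies 238 kb from *Rgs2*, was lower at 529 to 632 against 638 to 904 counts, at −0.35 on the log2 scale (SE 0.087, edgeR QL adjusted p = 0.0064) and −0.23 without WT replicate 2, its highest sample. It moved with the macrophage list, and that part was not tested. *Arhgef12*, a guanine nucleotide exchange factor named after its value was seen, was at 0.14 (SE 0.034, edgeR QL adjusted p = 0.0065). The median over the 19 genes was 0.03.

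Of the G proteins, their partners, effectors, and the enzymes of RGS turnover, 68 genes were listed, 55 were tested, and 3 were called. Over all tested genes 2.83% were called. With no fold limit 11 passed 0.05 by adjusted p, 4 higher and 7 lower, beside 21.5% of all tested genes. The alpha subunits are the substrates of RGS proteins, and 2 of the 14 tested were called. *Gnao1*, the Go alpha subunit of neurons and endocrine cells, rose from 91, 97, 105, and 105 counts in WT replicates to 158, 150, 146, and 160 in *Hint1-/-* replicates, or 0.64 on the log2 scale (SE 0.091, edgeR QL adjusted p = 4.4e-05). *Gnal*, the olfactory Gs-like subunit, fell from 36, 41, 31, and 41 to 14, 24, 32, and 12 counts, at −0.85 (SE 0.25, edgeR QL adjusted p = 0.020). *Hint1-/-* replicate 3 of *Gnal* lay within the range of WT, none of its 8 deposited values was whole, and its adjusted p was 0.071 without *Hint1-/-* replicate 1 and 0.076 without *Hint1-/-* replicate 4. The abundant Gi and Gq subunits on which most RGS proteins act were within 0.06 of 0 on the log2 scale: *Gnai2* at −0.06 (SE 0.033), *Gnai3* at −0.01 (SE 0.035), *Gnaq* at 0.01 (SE 0.037), and *Gna11* at −0.02 (SE 0.036).

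Of 14 tested effectors, *Adcy8*, an adenylyl cyclase that calcium activates, was called. It had 27, 19, 23, and 20 counts in WT replicates and 40, 35, 25, and 44 in *Hint1-/-* replicates, which overlap. It was higher by 0.70 on the log2 scale (SE 0.21, edgeR QL adjusted p = 0.024). The adjusted p was 0.070 under DESeq2 and 0.062, 0.057, 0.068, and 0.091 without WT replicate 2, WT replicate 4, *Hint1-/-* replicate 1, and *Hint1-/-* replicate 4. *Plcb1*, a phospholipase C that Gq activates, was higher at 0.51 (SE 0.11, edgeR QL adjusted p = 0.0024), under the fold limit except without WT replicate 2, when it was 0.61. *Plcb4* was higher at 0.27 (SE 0.046), while *Plcb2*, a form of blood cells, at −0.24 (SE 0.059), *Adcy2* at −0.41 (SE 0.095), and *Adcy5* at −0.38 (SE 0.12) were lower, each with an adjusted p under 0.05. The adjusted p of *Adcy5* was 0.051, 0.073, 0.072, and 0.095 without WT replicate 3, WT replicate 4, *Hint1-/-* replicate 1, and *Hint1-/-* replicate 2. *Plcb4*, *Plcb2*, *Adcy2*, and *Adcy5* were named after their values were seen.

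None of the 12 tested beta and gamma subunits was called, and 2 passed 0.05 by edgeR QL adjusted p, *Gngt2* at −0.37 (SE 0.13, edgeR QL adjusted p = 0.043, 0.10 under DESeq2, and up to 0.149 with a sample left out) and *Gnb4* at −0.18 (SE 0.049, edgeR QL adjusted p = 0.011), the latter named after its value was seen. The edgeR QL adjusted p of *Gnb4* was 0.051 without *Hint1-/-* replicate 2. *Gng8* was at −0.23 (SE 0.096, edgeR QL adjusted p = 0.095). The count at an unadjusted p under 0.05 was 3, and DESeq2 and limma-voom called 0. Among 9 tested partners of RGS proteins and alpha subunits, 0 were called, and DESeq2 and limma-voom also called 0. *Gpsm3*, a GoLoco protein of immune cells, was lower at −0.26 (SE 0.050, edgeR QL adjusted p = 0.00068), the 1 gene with an unadjusted p under 0.05, and *Gpr179*, which anchors R7 proteins in the retina, was at −0.16 (SE 0.12, edgeR QL adjusted p = 0.39).

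The N-degron enzymes prepare or recognize the N-terminal cysteine by which RGS4, RGS5, and RGS16 are degraded. All 6 were tested, and 0 passed an adjusted limit of 0.05 by edgeR QL, DESeq2, or limma-voom, with 0 at an unadjusted p under 0.05 in edgeR. The log2 fold changes lay between −0.06 and 0.11, the largest being *Ubr1* at 0.11 (SE 0.053, edgeR QL adjusted p = 0.18) and *Ate1* at 0.08 (SE 0.045, edgeR QL adjusted p = 0.22). Of the known partners of HINT1 and RGSZ proteins in neurons, *Rgs20*, the other RGSZ gene, had 1 to 6 counts in WT and 4 to 8 in *Hint1-/-* MASMCs and was not tested. The NMDA receptor subunit *Grin1* was at 0.41 (SE 0.13, edgeR QL adjusted p = 0.027) and the protein kinase *Prkca* at 0.17 (SE 0.034, edgeR QL adjusted p = 0.0014), both higher in *Hint1-/-* MASMCs and under the fold limit.

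**Figure D4:**
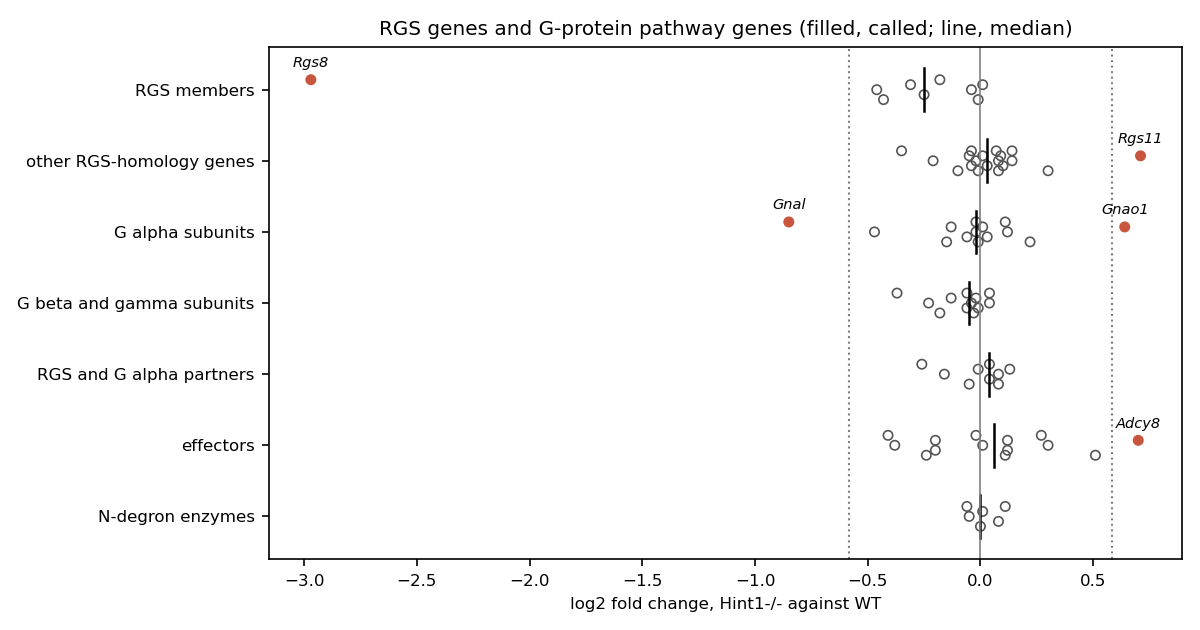
Log2 fold change of *Hint1-/-* against WT MASMCs for each tested gene of the RGS members and of 6 lists of related genes. Filled points are called genes, black lines are list medians, and dotted lines mark a fold of 1.5. *Rgs8* at −2.97 lies farthest from 0, and *Gnal* at −0.85 also lies beyond the lower limit. *Rgs11*, *Gnao1*, and *Adcy8* lie beyond the upper limit.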

How the data were processed

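RNA-Seq was analysed for 4 WT and 4 *Hint1-/-* samples of PDGF-BB-treated MASMCs, grouped by the genotype in the sample labels. The authors deposited estimated counts per gene symbol, with decimals and no normalization. The submitters' processing notes name mm10, Bowtie2, RSEM 1.3.1, and DESeq2 1.4.5, the study's methods name HISAT2, and the gene annotation used is not given in the sources used here. Molecular identifiers are not described, so copies made in amplification cannot be told apart from separate molecules. The p-values cover the spread between samples, in which amplification is not separated. The interval of *Rgs7* covers counting error only, not amplification.

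Counts were rounded to whole numbers, filtered with filterByExpr, scaled by TMM, and tested in edgeR 4.0.16 (R 4.3.3) by glmQLFit and glmQLFTest, two-sided and with no term but genotype. Calls used the study's thresholds, an adjusted p under 0.05 and a fold over 1.5. The SE is the log2 fold change divided by the square root of F. For log2 CPM the prior count was 2. The fits were first tested on simulated data. Positions and exon lengths came from GENCODE M21 on GRCm38, which gave none for 800 symbols, and promoters from RefSeq. Protein sequences were not used here. Results for a few genes that the rule for named genes covers are not reported here.

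The RGS genes and all lists were chosen with earlier results of these data known. Genes named were all RGS genes on the list, called genes of the lists, the 2 with the largest change in each list, the nearest tested neighbours of *Rgs8*, *Rgs16*, and *Rgs17*, the 5 genes most like *Rgs8*, and the first 2 markers of each list. Others, and the other members of the Gi and Gq classes, were chosen after their values were seen. Alternatives were DESeq2 1.42.0, limma-voom (limma 3.58.1), 2 other normalizations, 2 other filters on low counts, no fold limit, a replicate block, and each sample left out in turn.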

Additional observations from a re-analysis of the deposited data

Results flagged for a closer look

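*Rgs4* in *Hint1-/-* replicate 4 stood apart from its group, with 73 counts against 48, 49, and 49. The gap to the nearest sample was 0.946 of the range of the 4 samples on the log2 CPM scale, above Dixon's 95% critical value. Among the 24 groups of 4 samples examined, 1.2 would pass this limit by chance.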

How the results depend on the processing

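The lack of a fold limit changed the counts most: 2907 genes instead of 383 over all tested genes, 5 instead of 1 of the RGS genes, 3 instead of 1 of the other RGS-homology genes, and 11 instead of 3 of the G-protein pathway genes. With single samples left out, 1 to 3 of the pathway genes were called, and 1 without *Hint1-/-* replicate 1 or 4. None of the 15 alternative fits changed a call among the 9 tested RGS genes. The log2 fold change lay between −3.07 and −2.90 for *Rgs8*, between −0.48 and −0.44 for *Rgs16*, and between −0.54 and −0.32 for *Rgs17*. The sign changed in 3 of the 15 for *Rgs2* and in 5 for *Rgs4*, which ranged from −0.18 to 0.05. The summed level per length in *Hint1-/-* MASMCs was 79.9% to 82.5% of WT under the alternatives run. The sum itself rests on the length used, at 97.8 ± 3.14 in WT and 80.7 ± 1.11 in *Hint1-/-* MASMCs (SD, n = 4 each) with the longest transcript. With the replicate block, 382 genes were called, 1 of them among the 10 RGS genes, and the counts of called RGS-homology genes and G-protein pathway genes were 1 and 3. The marker lists were not run with it. The labels of the genotypes share only replicate numbers and name no pairing. The correlations of same-numbered deviations were −0.045, 0.081, 0.0088, and 0.023, and 2 of the 4 numbers correlated best with their own. With 4 samples per genotype these values cannot decide whether samples were paired. *Rgs7* and *Rgs20* had too few counts to test.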
